A study of Homo sapiens with 6 samples.

Results

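The 37 genes described here encode proteins of the complement and coagulation cascades, the plasminogen system, acute phase plasma proteins, and the apolipoprotein genes APOE and APOB with the endocytic receptor gene LRP1. They were taken by symbol from a list chosen with earlier results of these data known, and all 37 were found among the 58721 genes of the count table. Of these, 32 passed the filter on low counts. The RNA came from A549, an established line of human lung adenocarcinoma, and was labelled as polyadenylated RNA. One group of 3 libraries was labelled as overexpressing (OE) the KAT8 R98W form, and the other group of 3 as overexpressing KAT8 WT. In the library labelled WT replicate 1, KAT8 was low, as given below. Both groups share the A549 background and its own KAT8 gene. Neither the construct nor its promoter is stated in the labels, and no library was labelled as lacking overexpression. KAT8, also called MOF, is a lysine acetyltransferase of histone H4, and R98W is a substitution that the series title places in its Tudor-knot domain. Separate cultures are not labelled for the replicates. The p-values therefore take only library-to-library spread as error, and that spread may be technical.

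Complement is a set of plasma proteases and pore-forming proteins that label and lyse foreign cells. The proteases C1r and C1s start the classical pathway, factor B drives the alternative pathway, and both routes cleave C3 and then C5. Host cells protect themselves with membrane proteins such as CD46, CD55 and CD59. Coagulation ends with thrombin turning fibrinogen, a hexamer of paired alpha, beta and gamma chains, into fibrin, and plasmin, released from plasminogen by PLAT or PLAU, dissolves the clot. The liver makes most of these plasma proteins and raises many of them in inflammation, under interleukin 6, STAT3, C/EBP factors and HNF1. Lung epithelial cells are also known to make complement components and, under inflammatory signals, fibrinogen.

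Library totals ran from 101792328 to 108742650 counts in R98W and from 90007121 to 110152936 in WT. KAT8 stood at 166, 196 and 236 CPM in R98W replicates 1 to 3 and at 12.2, 195 and 184 CPM in WT replicates 1 to 3, where CPM is the count scaled by the TMM-adjusted library total, per 1000000. The library labelled WT replicate 1 was thus far below the other 5 in the overexpressed gene. KAT8 had a log2 fold change of R98W over WT of 0.61 (SE 0.48, adjusted p = 0.362 by edgeR), or 0.06 (adjusted p = 0.687) without that library, and counts of members are also given without it. The 13 genes of an A549 and airway epithelium list summed to 18922 to 20359 CPM in R98W and 17462 to 18474 CPM in WT, without overlap. The largest part of these sums was AKR1B10, averaging 8707 CPM in R98W and 7110 CPM in WT. Their separation thus does not describe the list as a whole, and KRT7, KRT8 and CDH1 overlapped between the groups. The epithelial keratin genes KRT8 and KRT18, not called, averaged 4377 and 2838 CPM in R98W and 4441 and 3106 CPM in WT. Of the same list KRT19 and AKR1B10 were higher in R98W, with log2 fold changes of 0.48 and 0.29, and EPCAM and ABCA3 were lower, with -0.86 and -0.39. The alveolar markers SFTPB and SFTPC, of surfactant protein, and the lung lineage factor NKX2-1 were each under 0.14 CPM in every library. The summed level of 8 hepatocyte marker genes ran from 2.95 to 3.32 CPM in R98W and from 4.15 to 5.45 CPM in WT. The defining gene ALB, albumin, was at most 0.362 CPM in any library and 6 of the 8 averaged under 1 CPM over the libraries, while AHSG and ASGR1 were lower in R98W. The part of these marker differences in the results below was not tested. The sums of the macrophage, fibroblast and erythroid lists overlapped between the groups, the macrophage sum at 6.27 to 8.80 CPM in R98W and 7.54 to 8.44 CPM in WT. Most of the macrophage sum was CD14, averaging 7.21 CPM in R98W and 7.78 CPM in WT. Most of the fibroblast sum was COL1A1, averaging 12.3 CPM in R98W and 11.8 CPM in WT. HBA1 of the erythroid list was higher in R98W, averaging 0.350 CPM against 0.079 CPM in WT (log2 fold change 2.12, edgeR adjusted p = 0.00485). The 6 endothelial genes summed to 0.214 to 0.403 CPM in R98W and 0.412 to 0.895 CPM in WT.

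Among the members, genes of complement components, fibrinogen chains and plasma proteins were mostly lower in R98W. The membrane inhibitors CD46, CD55 and CD59 and the anticoagulants PROCR, THBD, TFPI and TFPI2 were higher. Of the 32 members tested, 19 were lower and 10 were higher by edgeR at an adjusted p under 0.05, and 3 did not pass. Over all 20713 tested genes 34.8% were called, 18.5% lower and 16.2% higher, so calls were common everywhere, and the members' shares were 59.4% lower and 31.2% higher. As the members were chosen with earlier results known, the shares given here describe the list and are not a test of it. The median log2 fold change of R98W over WT was -0.43 for the tested members and -0.0047 for all tested genes. The groups of libraries did not overlap for 30 of the 32 members, against 45.6% of all tested genes. R98W was below WT in 19 of these 30, against 24.2% of all tested genes, and above it in 11, against 21.3%. Called falls of at least 2-fold numbered 8 among members, a size reached by 4.85% of all tested genes. No member rose 2-fold, which 0.748% of all tested genes did. SERPING1, which is among these 8 and in the counts above, entered the test only through the WT libraries. Without the library labelled WT replicate 1, 19 members were lower and 8 higher. Fewer cells that express a gene and less RNA in each cell cannot be told apart in such bulk libraries.

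**Figure D1:**
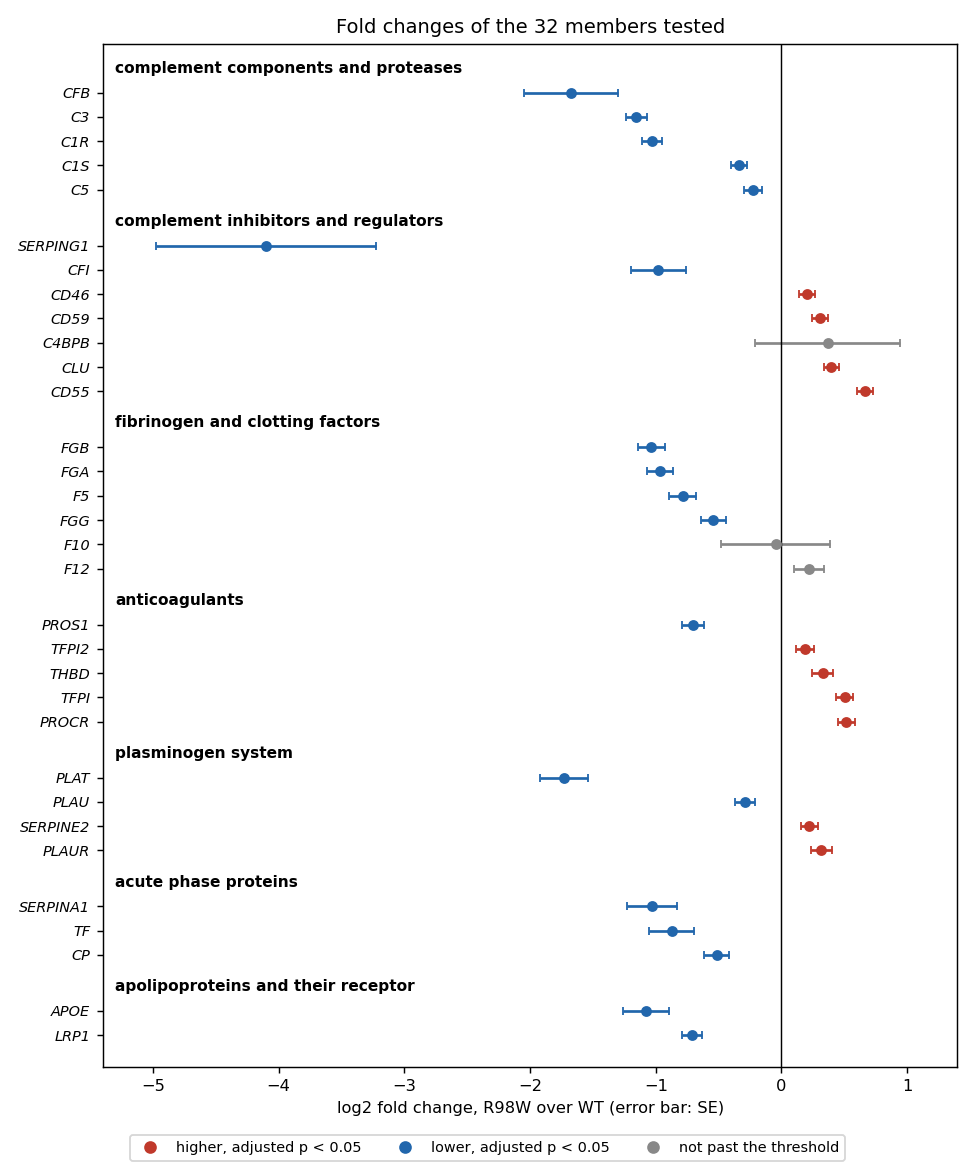
Log2 fold change of R98W over WT for each of the 32 tested members, grouped by role, with the SE as error bar; colour marks genes past an edgeR adjusted p of 0.05. All 5 listed complement components lie left of 0, while CD46, CD55, CD59 and CLU lie right of it.

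All 5 members in the group of complement components, C3, C5, C1R, C1S and CFB, were lower in R98W. C3, the component on which the activation pathways converge, held 48.1, 47.8 and 40.0 CPM in R98W and 111, 99.4 and 91.7 CPM in WT. Every R98W library lay below every WT library. The log2 fold change was -1.15 (SE 0.08, adjusted p = 1.01e-08 by edgeR). C3 (ENSG00000125730) lies on chromosome 19 at 6677704 to 6730562 in hg38, and its gene span shares 649 bases with GPR108 on the same strand but 0 exonic bases. C5, which forms the anaphylatoxin C5a and starts pore assembly, averaged 221 ± 22.1 CPM in R98W and 259 ± 9.78 CPM in WT (SD, n = 3 each). Its log2 fold change of -0.23 (edgeR adjusted p = 0.0200) was the smallest of the group, and without R98W replicate 3 it was -0.15 with an adjusted p of 0.128. After a loess correction for expression level, an alternative scaling, it was -0.39 and passed.

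The genes of the classical pathway proteases lie close together on chromosome 12, C1S at 6988259 to 7071032 and C1R at 7080199 to 7092607. C1R held 12.2, 11.9 and 11.4 CPM in R98W and 24.2, 24.8 and 23.8 CPM in WT. The R98W libraries were all below the WT libraries with little spread, and the log2 fold change came to -1.03 (SE 0.08, adjusted p = 2.29e-08 by edgeR). C1S averaged 69.3 ± 1.67 CPM in R98W and 87.7 ± 2.93 CPM in WT, a smaller fall of -0.34 (edgeR adjusted p = 3.95e-04). The C1S over C1R ratio of counts per kb, in which library scaling drops out, was 4.34, 4.31 and 4.71 in R98W and 2.84, 2.71 and 2.71 in WT. The ratio was thus higher in all R98W libraries (log2 difference 0.69, exact two-sided permutation p = 0.1, the smallest that 3 against 3 allows, so that no such ratio can pass 0.05). It is 1 of 7 ratios computed, with pairs chosen after the values were seen, and p adjusted over the 7 was 0.117 or 0.2. C1R shares 672 exonic bases with C1RL, and C1S 229 with EMG1, on the same strand. CFB, the protease subunit of the alternative convertase, was scarce at 0.275, 0.248 and 0.133 CPM in R98W and 0.482, 0.930 and 0.674 CPM in WT. These levels rest on 14 to 27 counts in R98W libraries and 48 to 107 in WT libraries, and the log2 fold change was -1.67 (SE 0.37, adjusted p = 0.00169 by edgeR).

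Complement inhibitors went both ways, with 4 of 7 higher and 2 lower. CD55, the decay accelerating factor that breaks up C3 convertases on host cells, held 106, 104 and 103 CPM in R98W and 64.2, 66.0 and 67.5 CPM in WT. All R98W libraries were above all WT libraries with little spread, and the log2 fold change of 0.66 (SE 0.06, adjusted p = 2.38e-07 by edgeR) was the largest rise among the members. CD59, which blocks the membrane attack pore, averaged 174 ± 3.64 CPM in R98W and 140 ± 5.04 CPM in WT, a log2 fold change of 0.31. CLU, or clusterin, a secreted chaperone that also binds the pore complex, averaged 957 ± 10.7 CPM in R98W and 727 ± 19.1 CPM in WT, a log2 fold change of 0.40 (SE 0.06, adjusted p = 4.26e-05 by edgeR). CD46, the cofactor for cleavage of C3b and C4b, averaged 400.0 ± 26.6 CPM in R98W and 348 ± 5.25 CPM in WT, a log2 fold change of 0.20 (edgeR adjusted p = 0.0212). After the loess correction for expression level, CD46 fell short of the threshold at 0.02 (adjusted p = 0.814), and CD59 and CLU shrank to 0.18 and 0.19 but still passed. CD46 also missed it without WT replicate 1 or 3 or R98W replicate 1, at adjusted p of 0.0560, 0.0676 and 0.145.

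The soluble inhibitors CFI and SERPING1 were lower. CFI, the protease that degrades C3b, held 1.09, 0.899 and 0.673 CPM in R98W and 1.49, 1.86 and 1.90 CPM in WT, with no overlap. Its log2 fold change was -0.98 (SE 0.22, adjusted p = 0.00171 by edgeR). SERPING1, the C1 inhibitor of C1r, C1s and the contact proteases, had 0, 0 and 3 counts in R98W and 12, 24 and 23 counts in WT. It entered the test only through the WT libraries (edgeR adjusted p = 0.00115). The ratio of R98W to WT, from 3 and 59 counts, was 0.0524 with an exact 95% counting interval of 0.0105 to 0.161, which covers counting error only. C4BPB, the beta chain of the C4b-binding protein, did not pass the threshold, with 0.195 ± 0.151 CPM in R98W and 0.150 ± 0.073 CPM in WT (edgeR adjusted p = 0.669).

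Promoter windows are shown for C1R, which fell, and CD55, which rose most, because these oppose each other in the same cascade. Each is the 300 bases from 250 before to 50 after a RefSeq start site (GRCh38.p14), written 5′ to 3′ on the gene's strand, with capitals for matches to a STAT-type motif (TTCNNNGAA), a C/EBP-type motif (TTGCNNAA) or an HNF1-type motif (GTTAAT, any base, then ATT) on either strand. The C1R window is chr12:7092396-7092695 on the minus strand and the CD55 window is chr1:207321428-207321727 on the plus strand.
C1R: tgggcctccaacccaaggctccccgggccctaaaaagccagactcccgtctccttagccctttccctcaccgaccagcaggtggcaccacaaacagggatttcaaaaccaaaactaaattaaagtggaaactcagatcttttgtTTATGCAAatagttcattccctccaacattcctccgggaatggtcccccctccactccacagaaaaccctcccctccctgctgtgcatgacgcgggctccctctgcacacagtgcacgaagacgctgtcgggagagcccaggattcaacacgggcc
CD55: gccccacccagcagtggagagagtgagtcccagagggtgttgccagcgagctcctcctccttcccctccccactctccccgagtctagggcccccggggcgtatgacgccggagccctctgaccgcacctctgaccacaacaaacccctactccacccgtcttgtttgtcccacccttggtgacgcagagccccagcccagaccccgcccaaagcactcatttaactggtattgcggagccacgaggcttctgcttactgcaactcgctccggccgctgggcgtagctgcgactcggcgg
C1R had 1 C/EBP-type match, first base at -106 from the start, and CD55 had a match to none of the 3 motifs. Over all 35116 windows of this length, 7.66% held the STAT-type, 10.5% the C/EBP-type and 0.322% the HNF1-type motif. A match is a run of letters and not evidence of binding.

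**Figure D2:**
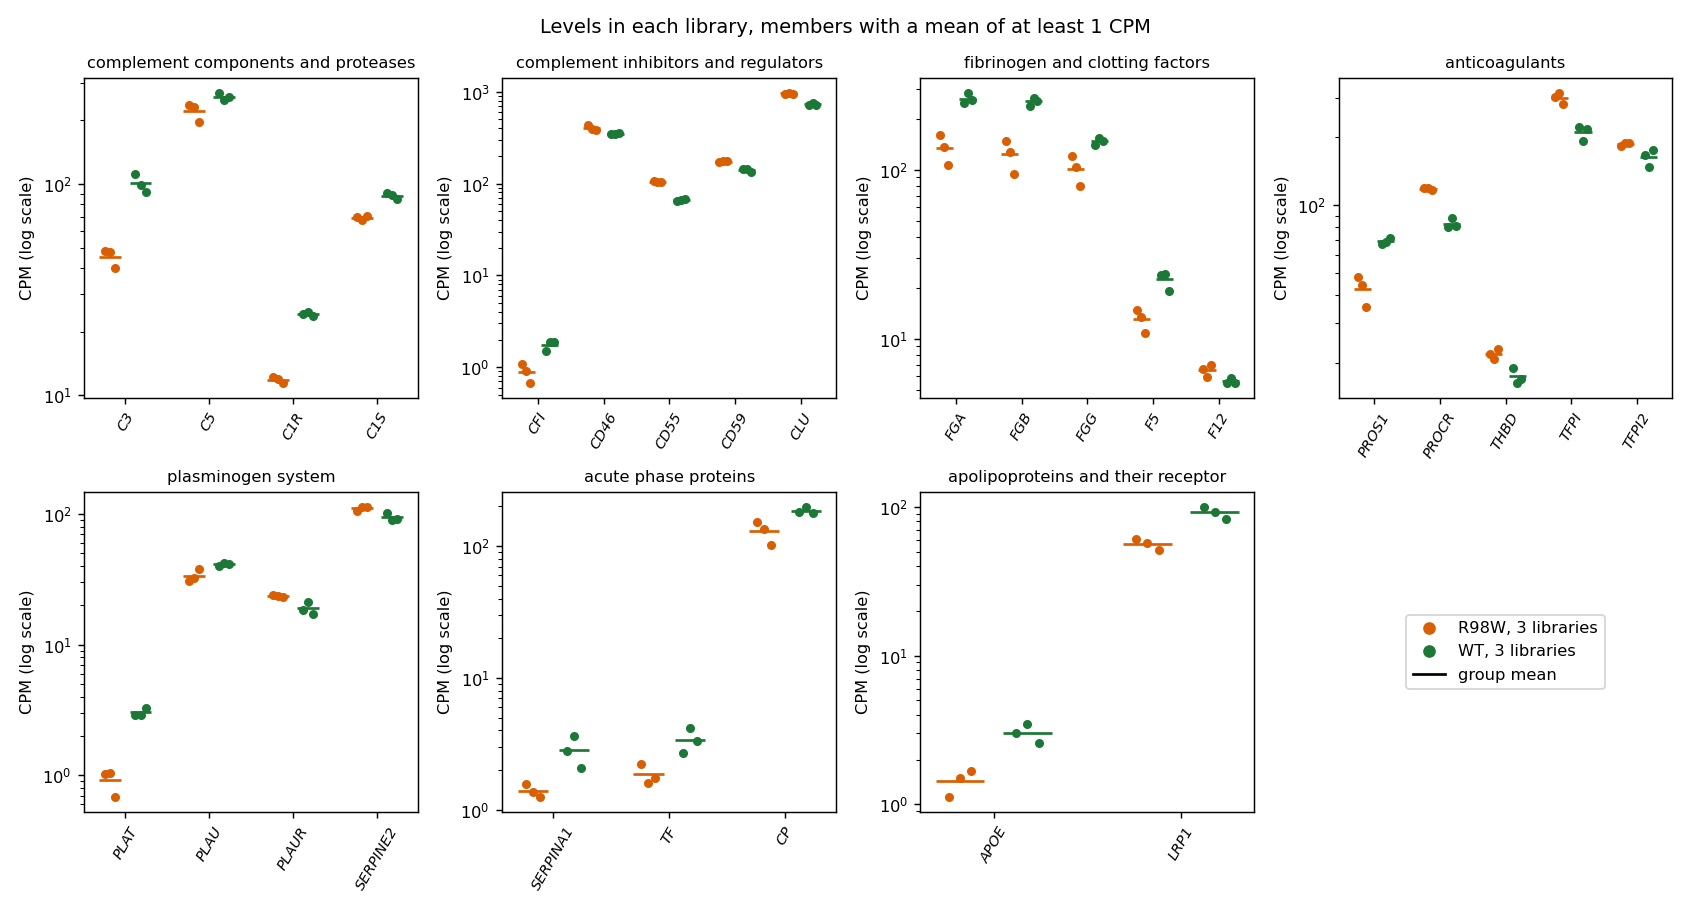
CPM on a log axis in each of the 3 R98W (orange, left) and 3 WT (green, right) libraries for the 28 tested members with a mean of at least 1 CPM, by role; lines are group means. C3, C1R, FGA, FGB and PLAT show R98W points well below WT points, and CD55, PROCR and TFPI show R98W points above them.

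All 3 fibrinogen chain genes and the F5 gene fell. FGA, the alpha chain gene, held 160, 136 and 106 CPM in R98W and 246, 284 and 256 CPM in WT. The R98W libraries were spread but stayed under every WT library, with a log2 fold change of -0.97 (SE 0.10, adjusted p = 8.76e-07 by edgeR). FGB, the beta chain gene, held 148, 128 and 94.6 CPM in R98W and 239, 265 and 256 CPM in WT, likewise without overlap. Its log2 fold change was -1.04 (SE 0.11, adjusted p = 6.18e-07 by edgeR). FGG, the gamma chain gene, held 120, 103 and 80.0 CPM in R98W and 139, 154 and 149 CPM in WT. These groups were closer but did not overlap, and the log2 fold change was -0.54 (SE 0.10, adjusted p = 3.27e-04 by edgeR). In each of the 3 genes R98W replicate 3 was the lowest library and WT replicate 2 the highest.

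The balance between the chains was not the same in the libraries of both groups. The FGG over FGA ratio of counts per kb was 1.41, 1.43 and 1.41 in R98W and 1.06, 1.02 and 1.09 in WT, a log2 difference of 0.42 (exact two-sided permutation p = 0.1, the smallest possible here). The ratio was nearly constant across the R98W libraries although FGA itself ranged from 106 to 160 CPM among them. FGB over FGA was 1.84 ± 0.05 in R98W and 1.94 ± 0.06 in WT (SD, n = 3 each), with overlapping libraries. Per kb of exon, FGB averaged 62.5 ± 13.7 CPM per kb in R98W and 128 ± 6.76 in WT, FGG 48.0 ± 9.55 in R98W and 69.9 ± 3.52 in WT, and FGA 33.9 ± 6.80 in R98W and 66.3 ± 4.96 in WT (SD, n = 3 each). In WT, FGB was exceeded on that scale only by CLU among the 37 members, whereas in R98W it also stood below CD46, PROCR, TFPI2 and TFPI.

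The fibrinogen genes lie side by side on chromosome 4, FGB from 154562956 to 154571086, FGA from 154583126 to 154590766 and FGG from 154604134 to 154612967. Their promoter windows are shown because the genes moved together, with the same capitals as above. FGB is at chr4:154562730-154563029 on the plus strand, FGA at chr4:154590693-154590992 and FGG at chr4:154612607-154612906 on the minus strand.
FGA: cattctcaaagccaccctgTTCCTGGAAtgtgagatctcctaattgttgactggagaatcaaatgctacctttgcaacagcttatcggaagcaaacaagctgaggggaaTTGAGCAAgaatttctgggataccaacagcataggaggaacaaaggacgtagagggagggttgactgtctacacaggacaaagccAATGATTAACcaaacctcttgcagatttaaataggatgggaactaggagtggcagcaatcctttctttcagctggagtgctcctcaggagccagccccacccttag
FGB: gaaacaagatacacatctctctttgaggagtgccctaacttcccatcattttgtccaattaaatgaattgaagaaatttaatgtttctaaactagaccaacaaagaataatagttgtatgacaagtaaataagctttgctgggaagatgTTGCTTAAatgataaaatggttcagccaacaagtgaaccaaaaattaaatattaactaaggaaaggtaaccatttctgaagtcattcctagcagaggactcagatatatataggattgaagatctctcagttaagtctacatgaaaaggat
FGG: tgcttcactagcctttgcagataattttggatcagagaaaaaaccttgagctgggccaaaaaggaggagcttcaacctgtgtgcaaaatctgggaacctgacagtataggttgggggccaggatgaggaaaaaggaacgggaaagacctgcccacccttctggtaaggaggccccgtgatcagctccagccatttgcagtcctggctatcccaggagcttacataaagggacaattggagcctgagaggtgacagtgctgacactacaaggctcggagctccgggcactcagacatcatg
The FGA window held 1 match of each kind, to the STAT-type motif at -231, the C/EBP-type motif at -141 and the HNF1-type motif at -56. FGB held 1 C/EBP-type match at -101, and FGG held no match. Of the 26 members with a window, 5 held the STAT-type motif, 5 the C/EBP-type and 2 the HNF1-type, the last in FGA and C5.

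**Figure D3:**
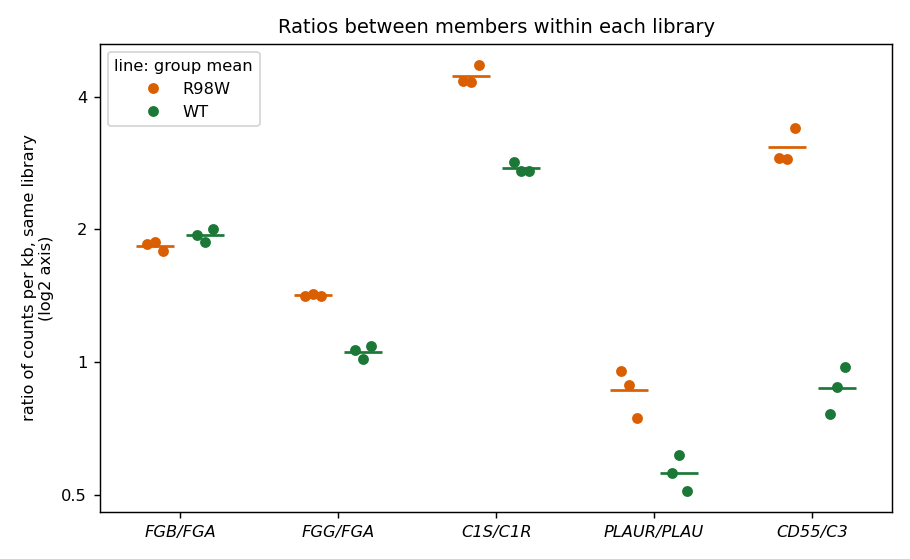
Ratios of counts per kb of exon between pairs of members within each library, on a log2 axis, with R98W (orange) left of WT (green) and lines at the group means. FGG/FGA, C1S/C1R, PLAUR/PLAU and CD55/C3 separate the groups, while FGB/FGA overlaps.

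F5 encodes factor V, the cofactor that speeds thrombin formation. It held 14.7, 13.5 and 10.8 CPM in R98W and 23.9, 24.2 and 19.2 CPM in WT, without overlap. The log2 fold change was -0.79 (SE 0.11, adjusted p = 2.06e-05 by edgeR). F12, the contact pathway factor, averaged 6.51 ± 0.55 CPM in R98W and 5.60 ± 0.23 CPM in WT and did not pass (log2 fold change 0.22, edgeR adjusted p = 0.162), though it did after the loess correction for expression level, at 0.33 (adjusted p = 0.0311). It shares 399 exonic bases with GRK6 on the other strand. F10, the protease that cuts prothrombin, was low, averaging 0.228 ± 0.041 CPM in R98W and 0.236 ± 0.047 CPM in WT and did not pass (edgeR adjusted p = 0.950).

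Among the members, anticoagulant genes were higher in 4 of 5 cases, beside 16.2% of all tested genes. The clotting regulator genes PROC, SERPINA5, SERPINA10 and PROZ, from a second list described below, did not pass. Their log2 fold changes were 0.05, 0.48, -0.05 and 0.70. PROCR, the endothelial protein C receptor, which presents protein C for activation, held 119, 119 and 116 CPM in R98W and 79.9, 87.6 and 80.5 CPM in WT. The lowest R98W library was well above the highest WT library, with a log2 fold change of 0.52 (SE 0.07, adjusted p = 6.09e-06 by edgeR). TFPI, the inhibitor of the tissue factor and factor VIIa complex, held 302, 315 and 281 CPM in R98W and 223, 193 and 218 CPM in WT, also without overlap. Its log2 fold change was 0.50 (SE 0.07, adjusted p = 2.07e-05 by edgeR). THBD, or thrombomodulin, which turns thrombin toward protein C activation, averaged 21.8 ± 1.13 CPM in R98W and 17.4 ± 1.42 CPM in WT, a log2 fold change of 0.33 (edgeR adjusted p = 0.00556). TFPI2, a related Kunitz inhibitor of plasmin and other proteases, was close to the threshold, averaging 187 ± 4.08 CPM in R98W and 164 ± 14.9 CPM in WT, a log2 fold change of 0.19 (edgeR adjusted p = 0.0434). That call ended after the loess correction for expression level, at 0.05 (adjusted p = 0.614), and when any library but WT replicate 3 was left out: without WT replicate 1 or 2 the adjusted p was 0.0576 and 0.213, and without R98W replicate 1, 2 or 3 it was 0.0698, 0.125 and 0.101.

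PROS1 was the anticoagulant gene that fell. It encodes protein S, the cofactor of activated protein C and of TFPI. It held 48.1, 44.5 and 35.2 CPM in R98W and 67.4, 68.8 and 71.9 CPM in WT. The R98W libraries were all lower, with a log2 fold change of -0.70 (SE 0.09, adjusted p = 6.29e-06 by edgeR). TFPI over F5, a ratio of an inhibitor of clotting to a clotting cofactor in counts per kb, was 34.6, 39.5 and 43.7 in R98W and 15.7, 13.5 and 19.2 in WT, with no overlap. The ratio of the complement inhibitor CD55 to C3 was 2.91, 2.89 and 3.40 in R98W and 0.762, 0.878 and 0.973 in WT, so CD55 was above C3 per kb in every R98W library and below it in every WT library. Both ratios set a member called higher over one called lower, so their separation follows from those calls. The pairs were chosen after the values were seen.

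In the plasminogen system both activators were lower. PLAT, the tissue-type activator, held 1.03, 1.03 and 0.682 CPM in R98W and 2.90, 2.92 and 3.27 CPM in WT. These levels rest on 72 to 101 counts in R98W and 289 to 336 in WT, the groups were far apart, and the log2 fold change was -1.73 (SE 0.19, adjusted p = 1.44e-06 by edgeR). PLAU, the urokinase-type activator, averaged 33.8 ± 3.75 CPM in R98W and 41.3 ± 1.21 CPM in WT (log2 fold change -0.29, edgeR adjusted p = 0.00834), and without R98W replicate 1 the adjusted p was 0.0710. PLAU shares 916 exonic bases with C10orf55 on the other strand. PLAUR, the urokinase receptor, was higher, averaging 23.6 ± 0.40 CPM in R98W and 19.0 ± 2.07 CPM in WT (log2 fold change 0.32, edgeR adjusted p = 0.00730), with an adjusted p of 0.0719 without WT replicate 3. The PLAUR over PLAU ratio of counts per kb was 0.956, 0.887 and 0.748 in R98W and 0.559, 0.614 and 0.510 in WT, with no overlap (exact two-sided permutation p = 0.1). As PLAUR was called higher and PLAU lower, this separation follows from those calls. SERPINE2, or protease nexin 1, which inhibits thrombin, urokinase and plasmin, averaged 111 ± 4.33 CPM in R98W and 94.8 ± 5.70 CPM in WT (log2 fold change 0.22, edgeR adjusted p = 0.0145). The SERPINE2 call ended after the loess correction for expression level, at 0.12 (adjusted p = 0.164), without WT replicate 3, at 0.0849, and without R98W replicate 2, at 0.0707.

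**Figure D4:**
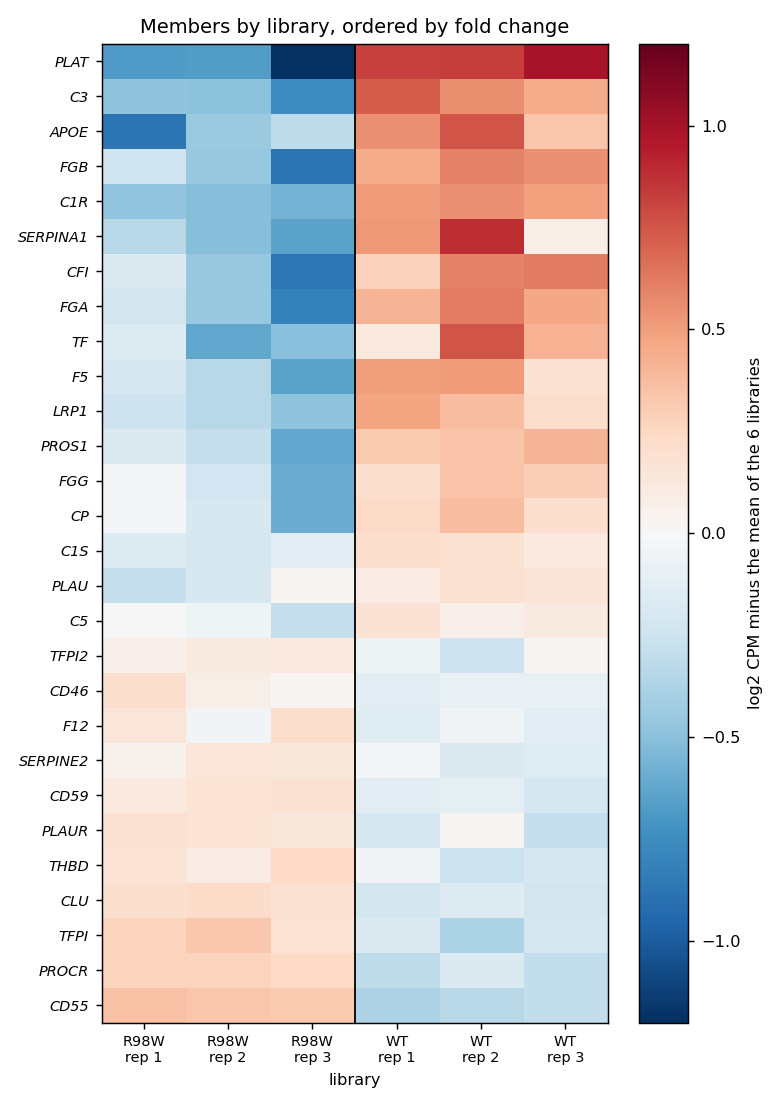
Log2 CPM of each of the 28 tested members with a mean of at least 1 CPM, minus its mean over the 6 libraries, with the R98W libraries left and the WT libraries right and genes ordered by fold change. Blue cells fill the upper left and R98W replicate 3 is the deepest blue for most of the genes that fell.

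Acute phase genes split into 3 that were expressed and lower in R98W and 4 that were too scarce to test. CP, or ceruloplasmin, the copper-binding ferroxidase, held 152, 135 and 102 CPM in R98W and 180.1, 199 and 177 CPM in WT. R98W replicate 1 came near the WT libraries but no library overlapped, and the log2 fold change was -0.52 (SE 0.10, adjusted p = 5.64e-04 by edgeR). CP shares 1418 exonic bases with HPS3 on the other strand. SERPINA1, or alpha-1 antitrypsin, the main inhibitor of neutrophil elastase, held 1.56, 1.37 and 1.25 CPM in R98W and 2.81, 3.63 and 2.06 CPM in WT. The WT libraries varied, yet each was above every R98W library, and the log2 fold change was -1.03 (SE 0.20, adjusted p = 4.93e-04 by edgeR). TF, or transferrin, the plasma iron carrier, held 2.22, 1.61 and 1.75 CPM in R98W and 2.70, 4.20 and 3.33 CPM in WT, with a log2 fold change of -0.88 (SE 0.18, adjusted p = 9.28e-04 by edgeR). It shares 112 exonic bases with SRPRB on the same strand.

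The strongly inducible acute phase genes were nearly silent in both groups. SAA1 had 0 to 14 counts per library in R98W and 4 to 14 in WT, and SAA2, a near-identical copy for which the split of reads is uncertain, had 0 to 2 in R98W and 1 to 3 in WT. HP, or haptoglobin, had 0 to 2 counts in R98W and 2 to 7 in WT, and SERPINA3, or alpha-1 antichymotrypsin, had 2 to 6 in R98W and 0 to 7 in WT. APOB, the structural protein of very low and low density lipoprotein, had 0 to 4 counts in R98W and 0 to 4 in WT. These 5 genes did not pass the filter on low counts, and no test result is given for them.

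APOE and LRP1, a ligand and its receptor in lipoprotein uptake, were both lower. APOE held 1.12, 1.51 and 1.67 CPM in R98W and 3.003, 3.47 and 2.60 CPM in WT, without overlap (log2 fold change -1.08, SE 0.18, adjusted p = 1.45e-04 by edgeR). LRP1, which also clears complexes of proteases with their inhibitors, among them those of PLAT and PLAU, held 60.4, 57.0 and 51.3 CPM in R98W and 99.9, 93.0 and 83.2 CPM in WT. The groups were well apart, with a log2 fold change of -0.71 (SE 0.08, adjusted p = 1.32e-06 by edgeR). LRP1 shares 59 exonic bases with STAT6 on the other strand.

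The lower members often shared their extreme library. Of the 19 lower members, 14 had their lowest value of all 6 libraries in R98W replicate 3, and 11 had their highest in WT replicate 2. No such count was made over all lower genes, so the pattern may not be particular to the members. The 10 higher members showed no such library, with the highest value in R98W replicates 1, 2 and 3 in 4, 3 and 3 cases. R98W replicate 3 also had the highest KAT8 level, at 236 CPM, and the part of KAT8 level in this was not tested. Without R98W replicate 3, 18 members were lower and 9 higher.

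In a second list of 157 other genes of the same pathways, 107 were tested. Of these, 17 (15.9%) were lower and 14 (13.1%) higher, slightly below the 18.5% lower and 16.2% higher over all tested genes. Their median log2 fold change was 0.05. Genes that rise and genes that fall in inflammation were not separated in its acute phase group, nor among the acute phase members. Other acute phase genes were lower in 6 of 11 tested cases and higher in 0, with a median log2 fold change of -0.42. Among them FN1, fibronectin, averaged 1679 ± 215 CPM in R98W and 2383 ± 209 CPM in WT (SD, n = 3 each; log2 fold change -0.51, edgeR adjusted p = 1.02e-04). RBP4, the retinol carrier, averaged 13.3 ± 1.22 CPM in R98W and 22.6 ± 0.54 CPM in WT (log2 fold change -0.77, edgeR adjusted p = 1.90e-06). ITIH2, an inter-alpha-trypsin inhibitor heavy chain, and AHSG, fetuin A, had log2 fold changes of -0.50 and -0.89.

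Among 22 other complement genes tested, 3 (13.6%) were lower and 1 (4.5%) was higher. Over all tested genes the shares were 18.5% lower and 16.2% higher. The components C2, CFD, C4A and C4B did not pass, with log2 fold changes of 0.29, 0.31, -0.62 and -0.74. ITGAX, the alpha chain of complement receptor 4, averaged 0.794 ± 0.126 CPM in R98W and 2.54 ± 0.26 CPM in WT (log2 fold change -1.68, edgeR adjusted p = 2.38e-06), and its partner chain ITGB2 had -0.84. C1RL, a C1r-like protease gene next to C1R, had -0.33. C1QBP, a mitochondrial protein that also binds C1q, had 0.22, and its call ended after the loess correction for expression level, at 0.05 (adjusted p = 0.647). It also missed the threshold without WT replicate 1 or 3 or R98W replicate 2, at adjusted p of 0.0705, 0.0650 and 0.0521.

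Among 19 other coagulation genes tested, 3 (15.8%) were lower and 0 were higher, beside 18.5% lower and 16.2% higher over all tested genes. F8, the factor VIII gene, averaged 10.2 ± 0.88 CPM in R98W and 14.8 ± 1.54 CPM in WT (log2 fold change -0.53, edgeR adjusted p = 4.46e-04). F2, the prothrombin gene, and F13B, a factor XIII chain gene, had log2 fold changes of -0.49 and -0.57. Both missed the threshold after the loess correction for expression level, at adjusted p of 0.0936 and 0.0523. F2 also missed it without WT replicate 1 or R98W replicate 1 or 3, at adjusted p of 0.0981, 0.0803 and 0.0648, and F13B without WT replicate 1 or R98W replicate 2 or 3, at 0.0706, 0.0511 and 0.0662. F3, the tissue factor gene, did not pass, averaging 2.07 ± 0.09 CPM in R98W and 2.49 ± 0.44 CPM in WT. Of the 7 other fibrinolysis genes tested 1 (14.3%) was lower, the antiplasmin gene SERPINF2 at -0.81. Of 11 other serpins tested 1 was higher, SERPINI1 or neuroserpin, a brain inhibitor of PLAT, with a log2 fold change of 0.81 (edgeR adjusted p = 4.75e-07), and 1 was lower, SERPINB7.

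Of 25 tested genes for the receptors, kinases and factors that induce acute phase proteins, 8 (32%) were higher and 2 (8%) lower. The shares over all tested genes were 16.2% higher and 18.5% lower. The median log2 fold change of the 25 was 0.13. The interleukin 6 receptor gene IL6R averaged 27.9 ± 1.81 CPM in R98W and 19.4 ± 1.22 CPM in WT (log2 fold change 0.52, edgeR adjusted p = 6.34e-05). The shared signal chain IL6ST averaged 411 ± 28.2 CPM in R98W and 299.8 ± 35.6 CPM in WT (log2 fold change 0.46, edgeR adjusted p = 1.95e-04; 0.28 after the loess correction for expression level), and LIFR had 0.39. FOXA3, a liver-enriched forkhead factor, was lower at -1.13, from 1.02 ± 0.38 CPM in R98W and 2.23 ± 0.35 CPM in WT. Other lipoprotein genes were higher in 4 of 12 tested cases and lower in 1, APOH. Among the higher ones, LRP8 and VLDLR, receptors for APOE, had log2 fold changes of 0.33 and 0.24, and VLDLR missed the threshold without WT replicate 1 or 3 or R98W replicate 2, at adjusted p of 0.0789, 0.0626 and 0.0519. C2, CFD, C4A, C4B, F3, PROC, SERPINA5, SERPINA10, PROZ, SERPINB7 and APOH were singled out after their values were seen.

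**Figure D5:**
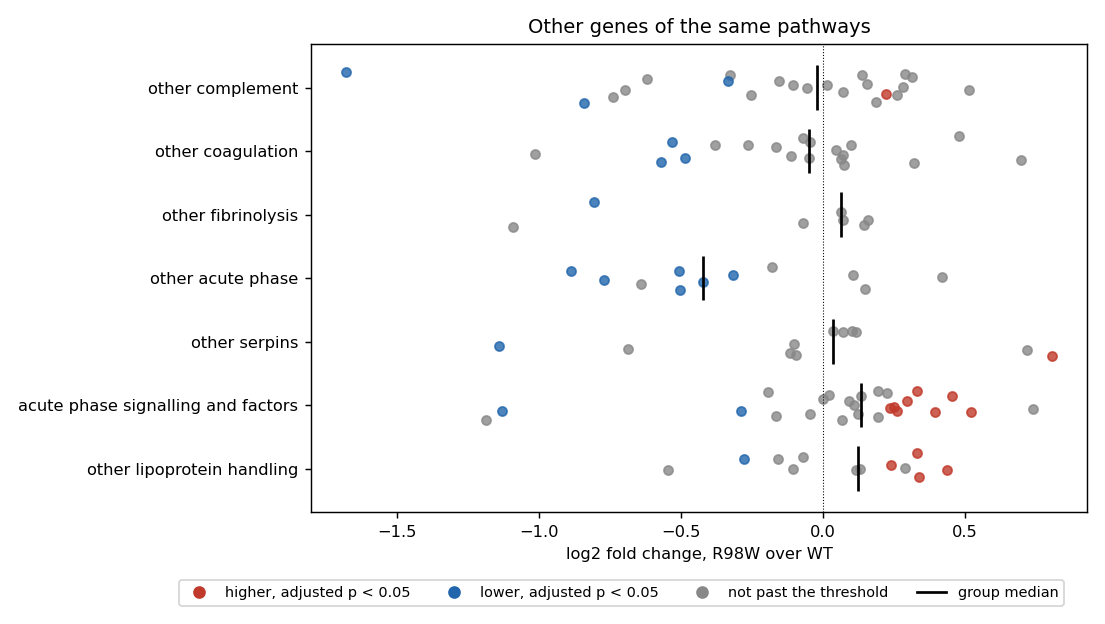
Log2 fold change of R98W over WT for the 107 tested genes of the second list, by group, with the group median as a line and colour for genes past an edgeR adjusted p of 0.05. The other acute phase genes lie mostly left of 0, and the called genes of acute phase signalling lie mostly right of it.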

How the data were processed

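RNA from 6 A549 libraries, 3 of R98W and 3 of WT, was sequenced as polyadenylated RNA. HTSeq 0.11.3, HISAT2 2.1.0, CASAVA 1.8 and the hg38 build are listed in the submitters' processing notes, and the deposited table holds raw counts per gene. No source used here states the annotation or strand setting, so reads of overlapping genes may be mixed. Genes were named by Ensembl ID from GENCODE release 29, which matched every ID. Counts were tested with edgeR 4.0.16 (R 4.3.3; limma 3.58.1): TMM, filterByExpr with a minimum count of 10 and a minimum total of 15, the quasi-likelihood test and Benjamini-Hochberg adjustment over 20713 genes at 0.05. The SE is the log2 fold change over the root of F, and the fit was tested on simulated data. Counts per kb use the union of exons. Promoters came from RefSeq (GRCh38.p14), with 26 of 37 members matched. The members and lists were chosen with earlier results of these data known. Named genes were all members, KAT8 and, in each group of the second list, at most the 4 called genes of smallest p with a mean of at least 1 CPM, some of which are not reported here. Per-library values are given for called members that changed by at least 0.5 on the log2 scale. DESeq2 1.42.0 was among 11 alternatives.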

Additional observations from a re-analysis of the deposited data

How the results depend on the processing

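Over the 11 alternatives (other size factors, a loess correction for expression level with a span of 0.3, no filter, DESeq2, a replicate block and leaving out each library), 7 to 10 members were higher, 18 or 19 lower, and 5400 to 7293 genes were called in all. Of the 29 called members, 23 kept call and direction in each, 6 lost the call in at least 1 (C5, CD46, TFPI2, PLAU, PLAUR and SERPINE2), and 0 turned direction. The uncalled C4BPB turned to -0.49 without R98W replicate 3, in a range of -0.49 to 0.85 over the left-out libraries. The uncalled F10 turned to 0.10 under the loess correction, without WT replicate 3 and without R98W replicate 3, in a range of -0.19 to 0.10 over the left-out libraries, and the cause was not tested. KAT8, with a log2 fold change of 0.61 (adjusted p = 0.362), was called with no filter (0.61) and in the replicate block (1.22), while over the left-out libraries it ran from 0.06 without WT replicate 1 to 1.01 without WT replicate 2 and was not called. The labels do not say whether equal replicate numbers pair the libraries. The correlations of deviations from the group means for equal numbers were 0.00564, -0.0392 and -0.0369, so no shared deviation was seen. With 3 libraries per group these correlations cannot decide whether the libraries were handled in pairs. With the replicate block, 10 members were higher and 19 lower, 6883 genes were called, and of the second list 16 were higher and 19 lower. Low counts limit C4BPB, F10, CFB, SERPING1 and the 5 untested members.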

Other observations

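By where the protein acts, a split made after the values were seen, 6 of the 7 members that encode membrane proteins (CD46, CD55, CD59, PROCR, THBD and PLAUR) were higher in R98W and 1 (LRP1) was lower, with a median log2 fold change of 0.32. Of the 25 tested members that encode secreted proteins, 4 (CLU, TFPI, TFPI2 and SERPINE2) were higher, 18 were lower and 3 did not pass, with a median of -0.70. Over all tested genes 16.2% were higher and 18.5% lower. After the loess correction for expression level CD46, TFPI2 and SERPINE2 no longer passed.

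Promoter windows of the members also differed in CpG content, again counted after the values were seen and given with no test. The 8 higher members with a RefSeq window held a median of 18.5 CpG dinucleotides in 300 bases, from 4 to 31. The 14 lower members with a window held a median of 7.0, from 0 to 23, beside 14.0 over all windows. Some windows lie far from the GENCODE gene start, that of TFPI (4 CpG) by 11325 bases and that of PROS1 (18 CpG) by 6107. Which start these cells use was not tested. FGA, FGB and FGG held 2, 0 and 4, C1R held 10 and CD55 held 19.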
